A study of Homo sapiens with 5 samples.

Results

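The HOX genes were examined through the ChIP-seq summits that lie in their 4 clusters. The 38 member genes are HOXA2, HOXA3, HOXA4, HOXA5, HOXA6, HOXA7, HOXA9, HOXA10, HOXA11 and HOXA13 in the HOXA cluster, HOXB1 to HOXB9 and HOXB13 in HOXB, HOXC4, HOXC5, HOXC6 and HOXC8 to HOXC13 in HOXC, and HOXD1, HOXD3, HOXD4 and HOXD8 to HOXD13 in HOXD. Summits were chosen by position alone, in 4 stretches of hg19: chromosome 7 from 27120000 to 27260000 (HOXA), chromosome 17 from 46600000 to 46820000 (HOXB), chromosome 12 from 54320000 to 54460000 (HOXC) and chromosome 2 from 176930000 to 177070000 (HOXD). They hold 143 of the 209263 summits of all 5 lists, with 52 in HOXA, 48 in HOXB, 20 in HOXC and 23 in HOXD. A summit is the 1 bp position where a called peak is highest.

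The cells were HCT116, an established line from a human colorectal carcinoma, at passages 16 to 19. For 48 hours they carried a control siRNA or one directed at the long noncoding RNA ENO1-IT1. In each condition chromatin was immunoprecipitated with an antibody to histone H3 acetylated at lysine 27 (H3K27ac) and with an antibody to the acetyltransferase KAT7. Input DNA made the other list, and its label names no siRNA. Each group was 1 library, so no difference below carries a test against replicate error, and each describes these libraries. The peak names of both conditions, the control included, begin with a KO tag, though not an identical one. The titles could therefore not be checked against the names, and every direction below would turn if the titles were exchanged. Neither the knockdown nor the cell type could be checked either, since the lists hold no transcript levels.

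HOX genes encode homeodomain transcription factors that give cells their position along the head-to-tail axis. Within a cluster the genes stand in the order in which they are used along that axis, from the anterior genes with low numbers to the posterior genes with high numbers, and the hindgut expresses members of several groups. Inactive HOX chromatin is typically held by Polycomb complexes, which methylate the same lysine 27 that is acetylated at active promoters and enhancers. KAT7, also called HBO1, is the catalytic subunit of MYST-family complexes that acetylate histones H3 and H4.

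The order of the genes was taken from RefSeq for GRCh38.p14, which holds all 38. With rising coordinates the members run from HOXA2 to HOXA13, from HOXB1 to HOXB13, from HOXC13 to HOXC4 and from HOXD13 to HOXD1. The HOXA and HOXB stretches thus begin at the anterior end of their cluster, and the HOXC and HOXD stretches at the posterior end. No hg19 gene annotation was used, so single summits were not assigned to genes, and the ends are used only to say on which side of a cluster a summit lies.

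Promoter sequence from RefSeq for GRCh38.p14 was matched for 20 of the 38 members (52.6%), under the 80% needed, so no summary of base composition over the members is given. The 250 bases before the start are shown for the members at both ends of HOXA, the stretch with the most H3K27ac, because the CG pairs differ widely in number between them. HOXA2 (GRCh38.p14 chr7:27102684-27102933, minus strand) has 8 CG pairs and 47.2% G and C, and HOXA13 (GRCh38.p14 chr7:27200092-27200341, minus strand) has 40 and 78%. Capitals mark CG pairs. These GRCh38.p14 positions cannot be set beside the hg19 summits, and neither sequence is tied to a summit here.
HOXA2: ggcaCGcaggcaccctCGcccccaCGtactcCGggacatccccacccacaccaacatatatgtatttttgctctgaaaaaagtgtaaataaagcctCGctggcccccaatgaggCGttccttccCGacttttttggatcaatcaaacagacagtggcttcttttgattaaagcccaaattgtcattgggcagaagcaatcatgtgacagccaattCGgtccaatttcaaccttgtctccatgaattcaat
HOXA13: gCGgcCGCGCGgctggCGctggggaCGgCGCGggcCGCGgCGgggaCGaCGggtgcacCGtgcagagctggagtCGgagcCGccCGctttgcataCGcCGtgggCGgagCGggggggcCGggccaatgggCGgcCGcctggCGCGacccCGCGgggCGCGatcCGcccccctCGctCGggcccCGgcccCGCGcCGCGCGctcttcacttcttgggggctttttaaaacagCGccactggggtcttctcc

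H3K27ac was dense in HOXA, less so in HOXB and sparse in HOXC and HOXD. The control list held 21 summits in HOXA, 16 in HOXB, 5 in HOXC and 4 in HOXD, and the knockdown list 22, 11, 6 and 3. Per 100 kb this was 15, 7.27, 3.57 and 2.86 in the control and 15.7, 5.00, 4.29 and 2.14 after knockdown. With all summits counted, the order of the clusters, HOXA above HOXB above HOXC above HOXD, was the same in both lists. Every count lay above the mean of the genome. Windows of 140 kb held 1.33 control and 1.44 knockdown summits on average, and windows of 220 kb, the length of HOXB, 2.09 and 2.26. Of 22117 such windows, 0.249% held at least as many control summits as HOXA and 11.8% at least as many as HOXD. The corresponding shares of windows after knockdown were 0.176% and 18.3%. Most windows, 60.7%, held no control summit at all. Neighbouring control summits were 5.35 kb apart in the median within the clusters and 12.8 kb over the whole list, and after knockdown 4.43 and 16.2 kb.

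The HOX summits made up 46 of 29429 control and 42 of 31839 knockdown H3K27ac summits. Each summit has a score, the -log10 of a p or q value from the peak caller, and scores rank summits within 1 list only. The median control score was 5.03 in HOXA, 13.2 in HOXB, 11.0 in HOXC and 4.71 in HOXD, against 7.14 over the whole list. After knockdown the medians were 8.03, 14.2, 7.16 and 5.42, against 8.02. The HOXA median thus lay below that of the whole list in the control and near it after knockdown. The HOXB median lay above it in both. Of the HOXA summits 28.6% in the control and 45.5% after knockdown scored at least 10, against 31.2% and 40.1% of the whole lists. At that score the control list held 6 summits in HOXA and 10 in HOXB, and the knockdown list 10 and 7. In the control 0.909% of windows then held at least as many as HOXA and 0.519% as HOXB, so their order by density turned. The highest HOXD score ranked 14015 in the control list and 16596 in the knockdown list.

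**Figure D1:**
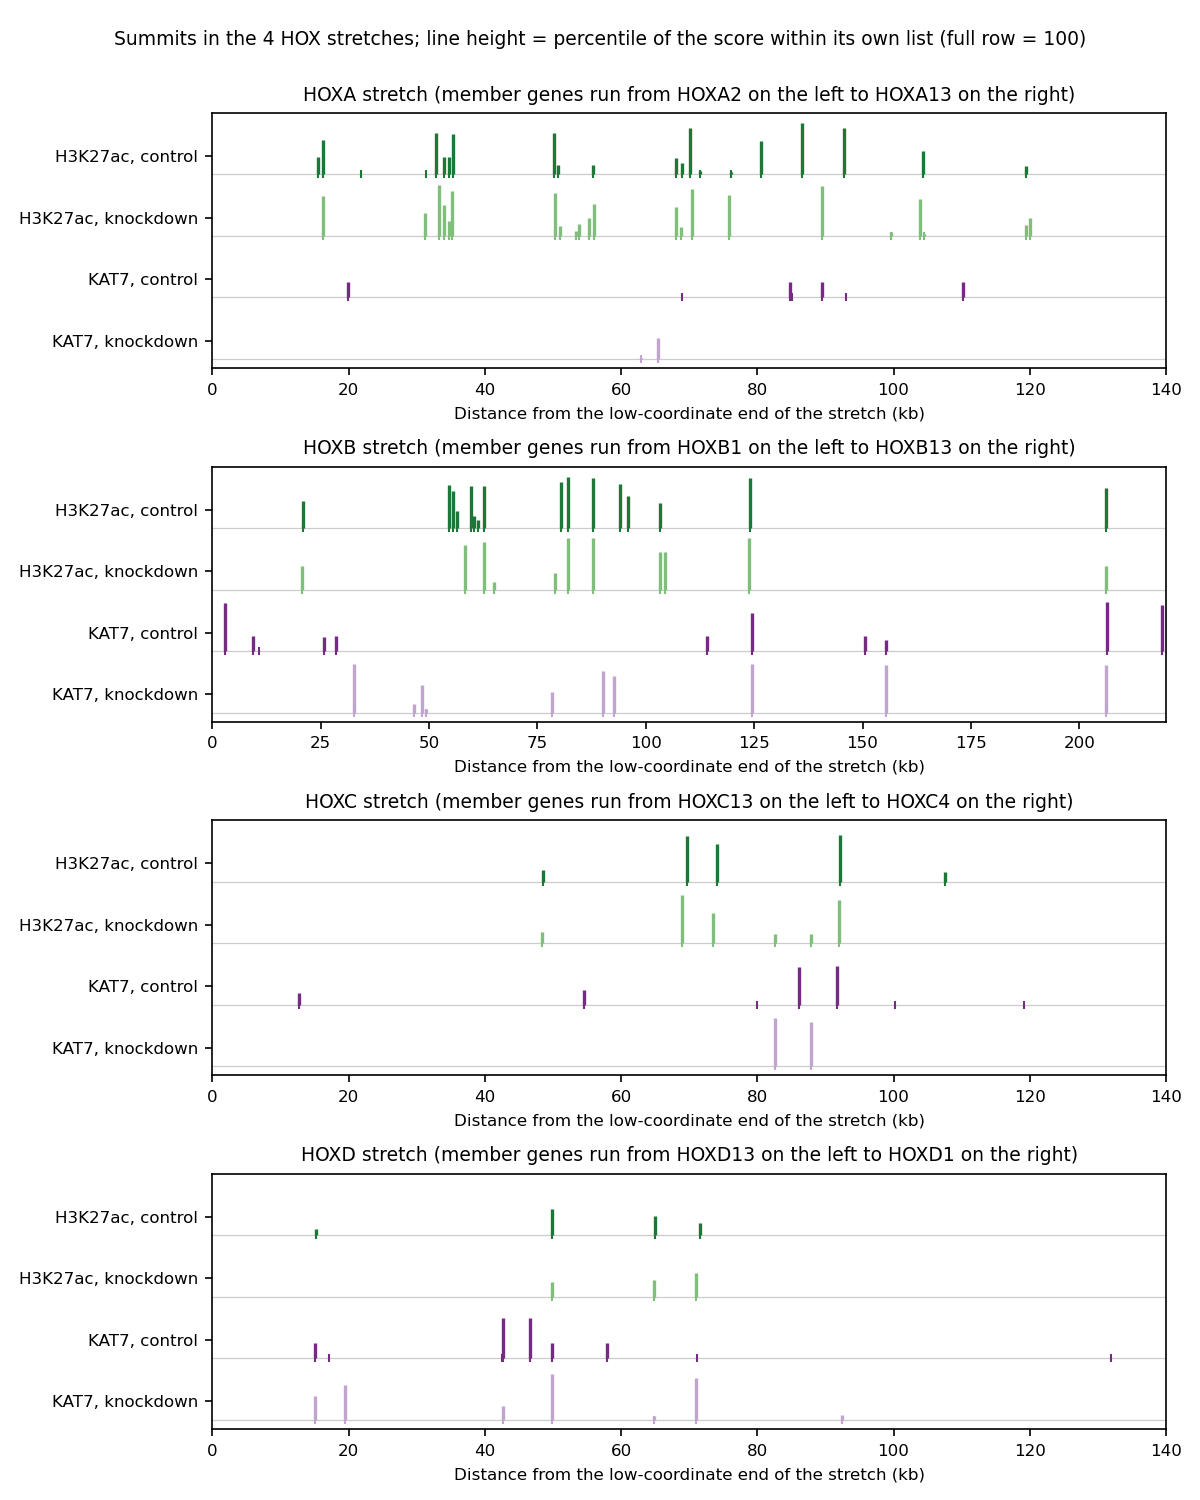
Summits of the 4 immunoprecipitated lists in each HOX stretch, by distance from its low-coordinate end in kb. A line stands for 1 summit and its height for the percentile of its score within its own list. When each stretch is cut into 3 equal parts, the part at the high-coordinate end holds 2 of 21 control H3K27ac summits in HOXA and 1 of 16 in HOXB, while HOXC and HOXD hold 5 and 4 control summits. Of the knockdown H3K27ac summits that part holds 5 of 22 in HOXA and 1 of 11 in HOXB.

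The H3K27ac of HOXA lay in several blocks across the cluster. When H3K27ac summits of both lists were joined wherever neighbours were at most 3000 bp apart, HOXA formed 12 blocks, of which 8 held summits of both conditions, 3 of the control alone and 1 of the knockdown alone. Joined in the same way, the 22831 blocks of the genome had both conditions in 73.9%, and those of all HOX stretches in 71.0% (22 of 31, exact 95% interval 52.0 to 85.8%). Control summits alone made up 1294 blocks of the genome and 6 of the 31 HOX blocks. Knockdown summits alone made up 4656 and 3. Blocks of 1 condition were thus more often of the knockdown in the genome and of the control in the HOX stretches, which was not tested. Of the HOXA blocks, 3 had 5 or more summits (25%), against 10.5% of blocks in the genome. Over all HOX stretches it was 4 of 31 blocks (12.9%), with 0 in HOXC and in HOXD.

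The block with the most summits in HOXA spanned 27151210 to 27155384, nearer the HOXA2 end, with 5 summits in each list. In the control its summits were at 27151345 (score 1.64), 27152846 (13.9), 27153992 (5.03), 27154671 (5.00) and 27155384 (13.2). After knockdown they were at 27151210 (6.87), 27153262 (41.3), 27153998 (10.0), 27154722 (5.07) and 27155236 (23.1). The summits of the 2 lists paired 1 to 1, at distances of 135, 416, 6, 51 and 148 bp. The knockdown summit at 27153262 was the highest of HOXA in its list, at rank 998, whereas its control partner stood at rank 5964.

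A second block, 27170196 to 27175976, held 3 control and 6 knockdown summits. Its low-coordinate edge was listed at 27170196 (score 13.9) in the control and at 27170241 (19.6) after knockdown, and its other edge at 27175950 (3.54) and 27175976 (10.4). Both edges were thus shared, while the knockdown summits between them at 27173448 (3.10), 27173889 (4.40) and 27175319 (5.76) had no control summit within 500 bp. The block from 27188038 to 27191574 held 4 control and 3 knockdown summits, with the highest at 27190130 (19.3) and 27190451 (27.4), 321 bp apart.

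Towards HOXA13 the lists first shared a weak control summit at 27196073 (score 2.08) and a knockdown summit at 27195872 (17.3), 201 bp apart. From 27200557 to 27212672 the conditions were listed at different positions. The highest control H3K27ac summit of HOXA lay at 27206613 (score 37.3, rank 633 of its list), and the nearest knockdown summit was 2848 bp away at 27209461 (score 37.7, rank 1357). Each was thus unmatched at 500 bp while ranking high in its own list. A control KAT7 summit (2.68) lay 27 bp from the knockdown one. The control summits at 27212672 (19.4) and 27200557 (9.23) had no knockdown summit closer than 3211 and 4685 bp. Beyond them the lists met again, with a control summit at 27224365 (6.47) and knockdown summits at 27223870 (13.9) and 27224520 (2.51), and with summits at 27239463 (3.19) and 27239496 (4.25), 33 bp apart.

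HOXB carried the strongest H3K27ac of the clusters that both lists placed at the same positions. The highest summits lay at 46682124 in the control (score 36.9, rank 639) and 46682156 after knockdown (55.9, rank 430), 32 bp apart. The next pair lay at 46687915 (31.8, rank 915) and 46687921 (53.3, rank 490), 6 bp apart, and a further pair at 46724003 (30.4, rank 1062) and 46723815 (47.1, rank 691), 188 bp apart. These were the only 3 control HOXB summits scoring 20 or more, and each had a knockdown partner. Of all control summits scoring at least 10, 81.1% had one within 500 bp. Control H3K27ac was listed at 46806260 (12.4) and knockdown H3K27ac at 46806276 (7.40), in the part of the stretch towards HOXB13, 82.3 and 82.5 kb from the next H3K27ac summit of their own list in the stretch.

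In the rest of HOXB, control summits outnumbered knockdown ones. The block from 46654679 to 46665052, of 10.4 kb, held 7 control and 3 knockdown summits, and only 0.569% of blocks in the genome spanned as much. Of its control summits 6 had no knockdown summit within 500 bp, as had 8281 of 29429 in the whole control list. The highest of the 6 were 46654679 (15), 46659600 (14.7) and 46655457 (10.8). The knockdown summit at 46658312 (22) lay between them, 1288 bp from the nearest control one, and the summits at 46662615 (14.1) and 46662613 (27.4) were 2 bp apart. The control summits at 46694054 (15.8) and 46695862 (8.75) formed the only HOXB block without a knockdown summit, the nearest being 6133 and 7447 bp away. The difference of 16 to 11 summits in HOXB thus came with 1 of 8 blocks that held control summits alone. In the genome 1294 of 22831 blocks did so. At a score of at least 10 the HOXB counts were 10 and 7, and those of the whole lists 9194 and 12767.

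HOXC had its H3K27ac in the middle of the stretch, with none in the third of the stretch at the HOXC13 end in either list. The pairs were 54368496 (3.79) and 54368318 (4.40), 54389620 (18.1) and 54389008 (28.9), 54394071 (11.0) and 54393566 (9.93), and 54412119 (18.7) and 54411997 (19.9), control first. Their distances were 178, 612, 505 and 122 bp, so the middle pairs missed the 500 bp limit narrowly. Without a counterpart were the control summit at 54427508 (3.54) and the knockdown summits at 54402642 (4.10) and 54407820 (4.13). The unmatched summits in HOXC other than these near misses were all weak.

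HOXD had few H3K27ac summits, of low to middling score. Control summits were listed at 176945169 (score 2.93), 176979884 (7.31), 176994947 (5.45) and 177001581 (3.96), and knockdown summits at 176979881 (5.21), 176994864 (5.42) and 177001051 (7.50). The last 3 control positions each had a knockdown summit, 3, 83 and 530 bp away. No HOXD summit reached a score of 10 in either list, and none lay in the third of the stretch at the HOXD1 end.

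Whether H3K27ac was listed at the same HOX positions in both conditions was asked with a limit of 500 bp. Of the 46 control HOX summits, 26 (56.5%, exact 95% interval 41.1 to 71.1%) had a knockdown summit, against 71.9% of the whole control list. Of the 42 knockdown HOX summits, 27 (64.3%, 48.0 to 78.4%) had a control summit, against 64.3% of the whole knockdown list. Intervals cover counting error only, and neighbouring summits are not independent. The control share was 71.4% in HOXA (15 of 21), 43.8% in HOXB (7 of 16), 40.0% in HOXC (2 of 5) and 50% in HOXD (2 of 4), with intervals that overlap. The upper end of the HOX interval lay just below the share of the whole control list. With lists of equal length the whole-list share was 70.1%, inside that interval, and the HOX share stayed at 56.5%. At a score of at least 10 the HOX share was 52.6% (10 of 19) and that of the whole list 81.1%. At 2000 bp the HOX and whole-list shares were 78.3% (36 of 46) and 93.5%, and at 1000 bp 65.2% and 87.3%. The gap was narrower at 250 bp, with 52.2% and 56.1%, and at 100 bp, with 30.4% and 35.8%.

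**Figure D2:**
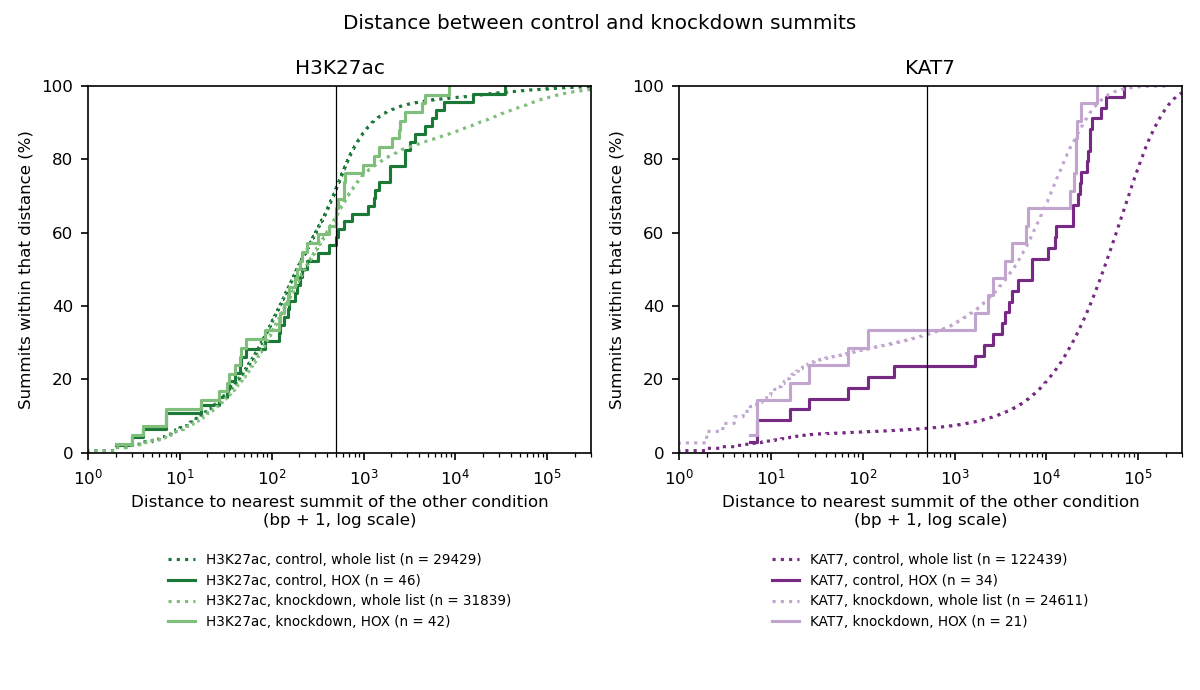
Share of summits (in %) with a summit of the other condition within a given distance (in bp plus 1, log scale), for H3K27ac on the left and KAT7 on the right; solid lines are the HOX summits and dotted lines the whole lists, and the vertical line marks 500 bp. The control HOX line for H3K27ac runs below its whole list at 500 bp (56.5% against 71.9%), and the control HOX line for KAT7 above it (23.5% against 6.62%).

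Control KAT7 was listed in all 4 clusters, with a median score at percentile 28.8 of its list, against 29.0 for the whole list. There were 7 summits in HOXA, 11 in HOXB, 7 in HOXC and 9 in HOXD, or 5.00, 5.00, 5.00 and 6.43 per 100 kb. Windows of 140 kb held 5.54 on average, and 36.5% of them held at least the 7 of HOXA and HOXC and 16.9% at least the 9 of HOXD. No control KAT7 summit of the clusters reached a score of 10, against 2.75% of the whole list, and 0 of 34 allows a share of up to 8.82%. In 20 of the 34 (58.8%) the score was 1 of the 2 most frequent values, 2.68 and 1.31, which 64.2% of the whole list shares. The highest scores were 7.70 at 46806327, towards HOXB13, and 6.67 at 46602959, at the HOXB1 end. In HOXA the highest score was 2.68, given to 4 summits alike.

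After knockdown KAT7 was listed at 21 HOX positions, mostly in HOXB and HOXD. HOXA had 2 summits, HOXB 10, HOXC 2 and HOXD 7. Their median score stood at percentile 66.0 of the knockdown list, whose whole has a median of 45.4. The 21 HOX summits were 0.0853% of the knockdown list, and the 34 control ones 0.0278% of the control list. HOXB held 4.55 and HOXD 5.00 summits per 100 kb, and 0.313% of 220 kb windows and 0.439% of 140 kb windows held at least as many. HOXA and HOXC held 1.43 each, and 29.2% of windows held at least as many. The flanking stretches of equal length had 1 and 1 summits beside HOXB, and 0 and 1 beside HOXD.

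**Figure D3:**
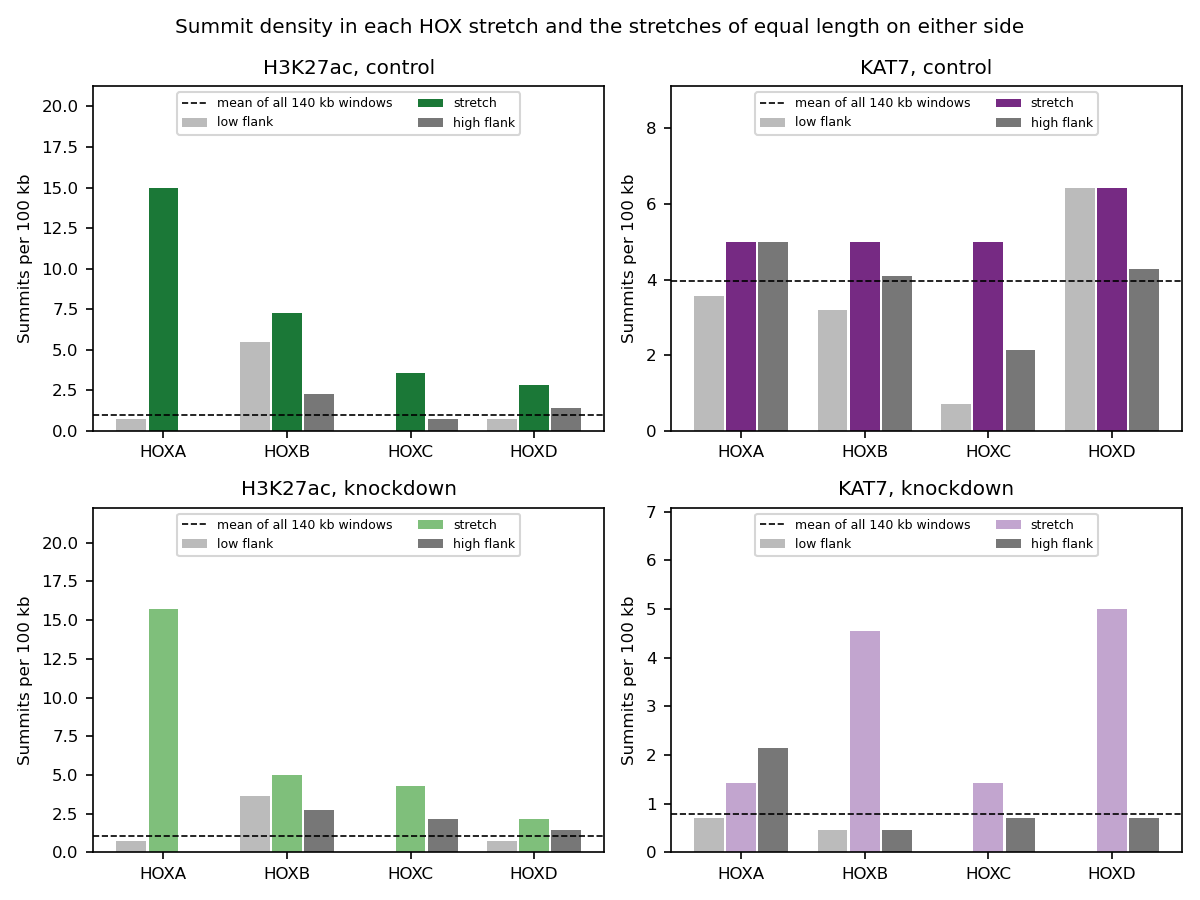
Summits per 100 kb in each HOX stretch (coloured bar) and in the stretches of equal length at lower and higher coordinates (grey bars), 1 panel per list, with the mean of all 140 kb windows as a dashed line. H3K27ac stood above both flanks in every cluster, while knockdown KAT7 did so in HOXB, HOXC and HOXD but not in HOXA, where the high flank held 3 summits and the stretch 2.

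The 7 knockdown KAT7 summits scoring 20 or more lay in HOXB, HOXC and HOXD. In HOXB they were at 46632699 (score 42.8, rank 1608 of 24611), 46724418 (41.5), 46755349 (34.1) and 46806259 (32.0). In HOXC they were at 54402639 (35.8) and 54407813 (22.1), and in HOXD at 176979885 (26.6). This was 33.3% of the HOX summits of that list, against 16.8% of all its summits. The other HOXB summits included 46690076 (17.2), 2155 bp from the strong H3K27ac at 46687921, and 46692725 (11.6). HOXA had none at 20 or above, and its knockdown KAT7 summits were at 27182990 (2.33) and 27185418 (6.64).

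The strong positions differed in whether the control list also held them, as those of the whole list did. At a score of at least 10, 5 of 11 HOX knockdown KAT7 summits (45.5%) had a control one within 500 bp. Over the whole knockdown list the share at that score was 48.2%. At 46724418 and 46755349 control KAT7 was listed 6 and 15 bp away, with scores of 3.76 and 1.92, and at 46806259 it was listed 68 bp away with 7.70. At 176979885 a control summit lay 5 bp away with 2.68. The HOXB summit at 46632699 and both HOXC summits had none nearer than 4177, 2620 and 1687 bp. The matched positions lay within 68 bp of each other. Within the control list their scores stood at percentiles 72.2 for the summit at 46724424, 21.5 at 46755334, 93.8 at 46806327 and 29.0 at 176979880, and within the knockdown list their partners stood at 93.3, 91.3, 90.3 and 87.4. The position towards HOXB13 thus ranked high in both lists.

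Of the 34 control KAT7 summits in the clusters, 8 were matched by knockdown KAT7 at 500 bp (23.5%, 10.7 to 41.2%), and over the whole control list this share was 6.62%. In the other direction 7 of 21 were matched (33.3%, 14.6 to 57.0%), and 32.2% of the whole knockdown list. All of these lay in HOXB, with 3 of 11 control summits, and HOXD, with 5 of 9. None of the 7 control summits of HOXA or the 7 of HOXC was matched, and 0 of 7 allows a share of up to 42.9%. With both lists cut to their highest-scored summits at equal length, 2 of 21 knockdown summits were matched (9.52%, against 13.1% of the whole list), and 2 of the 5 control summits left (40%, against 13.0%). The control list was cut among tied scores of 4.28, kept in order of chromosome name and position. The HOXD control summits at 176972685, which was matched, and 176976568 have that score, so their place depended on that order. In HOXD the shared positions were, besides 176979885, the knockdown summits at 176945034 (7.67), 176972679 (5.83) and 177001052 (17.8), with control summits 25, 6 and 112 bp away.

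KAT7 and H3K27ac were compared within each condition. In the control, 8 of 34 KAT7 summits (23.5%, 10.7 to 41.2%) had an H3K27ac summit within 500 bp, against 3.67% of the whole list. After knockdown it was 6 of 21 (28.6%, 11.3 to 52.2%), against 19.0%. From the side of H3K27ac the shares were 8 of 46 in the control (17.4%, 7.82 to 31.4%), against 14.8% of the list, and 6 of 42 after knockdown (14.3%, 5.43 to 28.5%), against 14.3%. The clusters themselves were denser in H3K27ac than the genome, and the part of that density in the KAT7 shares was not tested.

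After knockdown, KAT7 met H3K27ac where H3K27ac was weak. The 6 H3K27ac summits with KAT7 within 500 bp were 46806276 (score 7.40) in HOXB, 54402642 (4.10) and 54407820 (4.13) in HOXC, and 176979881 (5.21), 176994864 (5.42) and 177001051 (7.50) in HOXD. They lay 17, 3, 7, 4, 6 and 1 bp from KAT7 summits scoring 32.0, 35.8, 22.1, 26.6, 3.88 and 17.8. All 3 HOXD summits were among them, and none of the 22 in HOXA, which allows a share of up to 13.6%. Their median score was 5.31, and that of the 36 HOX summits without KAT7 was 10.2, the reverse of the whole list, where the medians were 9.93 with KAT7 and 7.59 without. This pattern was noticed in these data, rests on 6 summits and was not tested. The HOXB summit at 46723815 (47.1) lay just outside the limit, 603 bp from the KAT7 summit at 46724418.

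In the control the order depended on the limit. At 500 bp its 8 H3K27ac summits with KAT7 had scores from 2.93 to 30.4 and a median of 9.86, and the 38 without had a median of 7.09. With a limit of 100 bp the medians were 7.31 for 3 summits with KAT7 and 7.49 for 43 without, and at 1000 bp 7.31 for 9 and 7.49 for 37, so the order turned at both. At 2000 bp it was 9.86 for 12 and 7.09 for 34. After knockdown the summits with KAT7 had the lower median at all of these limits. The median distance to KAT7 was 256 bp among the 8 control summits and 5 bp among the 6 after knockdown. Over the whole lists those medians were 58 and 20 bp. Whether the conditions differ in this was not tested. The strongest acetylated pairs of HOXB, at 46682124 and 46687915, had no KAT7 summit within 500 bp in either condition.

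**Figure D4:**
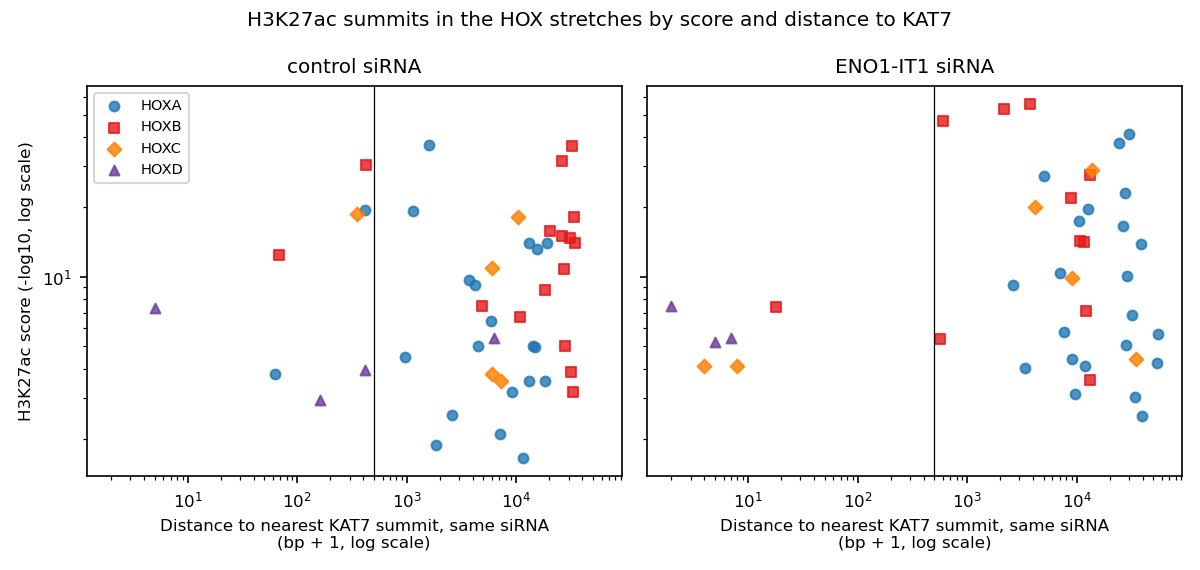
Each point is an H3K27ac summit of the HOX stretches, placed by its distance to the nearest KAT7 summit of the same condition (in bp plus 1, log scale) and by its score (log scale), with control siRNA on the left and ENO1-IT1 siRNA on the right; the vertical line marks 500 bp. After knockdown the 6 points left of the line score between 4.10 and 7.50, and the HOXB point at 603 bp with a score of 47.1 lies just to its right.

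A single HOX position was listed in all 4 immunoprecipitations within 50 bp of a control H3K27ac summit. It lay in HOXD at 176979884 (control H3K27ac score 7.31), with knockdown H3K27ac at 176979881 (5.21), control KAT7 at 176979880 (2.68) and knockdown KAT7 at 176979885 (26.6). This was 2.17% of the 46 control HOX summits, and the same kind of site made up 4.71% of the whole control H3K27ac list. The position towards HOXB13 came close to it, with H3K27ac at 46806260 and 46806276 and KAT7 at 46806327 and 46806259, where control KAT7 was 67 bp from the control H3K27ac summit.

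No input summit lay in any of the 4 stretches. The nearest was 1336370 bp from a HOX summit, in the case of HOXB, and no HOX summit of any list lay within 1000 bp of one. For the 46 control H3K27ac summits a count of 0 allows a share of up to 6.52%, and for the 21 knockdown KAT7 summits up to 14.3%. Over the whole lists the share near input was between 0.0359% for control KAT7 and 0.349% for knockdown KAT7, so a count of 0 in sets of this size is no result.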

How the data were processed

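ChIP-seq summits from 5 HCT116 libraries were used, 1 per group, grouped by sample title. The submitters' processing notes name Bowtie, MACS2 and the build hg19, and the sources used here do not give versions, options or the control used in calling. Each deposited list belongs to 1 sample and gives 1 summit of 1 bp per peak, with the authors' score, taken as the -log10 of a p or q value from what MACS2 writes. Peak names carry the tag rmdup. The depth of the libraries is unknown, since the lists hold no read counts, and more depth gives more summits and higher scores.

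Distances, shares with exact Clopper-Pearson 95% intervals, blocks and windows were computed with SciPy 1.17.1, pandas 2.3.3 and numpy 2.4.6 under Python 3.11.15. Plots used matplotlib 3.10.9. Summits within 500 bp counted as shared and within 1000 bp as near input. Windows were tiled from position 1 of chromosomes 1 to 22, X and Y to the last summit. The code for distances was tested on simulated data. Positions count from 1. The limit for a count of 0 is 3 counts.

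Named regions are the highest summit of each list per stretch, blocks of 5 or more summits, unmatched summits and KAT7 summits scoring at least 20, and sites in all 4 immunoprecipitated lists within 50 bp; other HOX summits were named after their values were seen. The members, lists and rules were chosen with earlier results of these data known. As alternatives, distances were set to 100, 250, 1000 and 2000 bp (5000 bp for input) and score minimums to 3, 10 and 20, with lists of equal length, merged summits, shortened stretches, block joins of 1000 and 5000 bp and shifted windows. The division of stretches into 3 equal parts, the H3K27ac scores by KAT7 and their distances of 100, 1000 and 2000 bp were chosen after seeing the data. Transcript levels were not analysed here.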

Additional observations from a re-analysis of the deposited data

How the results depend on the processing

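Over all alternatives 67 values were counted as the same, shares if within their counting interval and counts if within 1.5 times, and 25 moved further. Intervals of few summits are wide, so a value counted as the same need not be close. The matched share of HOX control KAT7 summits was 23.5%, and 40% with lists of equal length, and was counted so. A median control H3K27ac score with KAT7 of 7.31 in place of 9.86 was too. Score minimums changed the HOX counts most. At a score of at least 10 there were 19 control and 19 knockdown H3K27ac summits, 0 control and 11 knockdown KAT7 summits and 20 acetylated blocks. At 20 these counts were 4, 10, 0 and 7, and at 3 there were 8 control KAT7 summits. The scores of the lists share no scale. The whole H3K27ac lists held 9194 control and 12767 knockdown summits at 10, and 2961 and 5507 at 20. The whole KAT7 lists turned as well, from 122439 control and 24611 knockdown summits to 3371 and 9199 at 10. At 20 the KAT7 lists held 751 and 4139. The share of HOX control H3K27ac summits with a knockdown one was 30.4% at 100 bp and 78.3% at 2000 bp. Over the whole control list it was 35.8% and 93.5%. For HOX knockdown H3K27ac summits with a control one it was 33.3% at 100 bp, 78.6% at 1000 bp and 83.3% at 2000 bp. The whole knockdown list had 33.0%, 75.7% and 81.1%, close to these. At a score of at least 10 it was 78.9% in HOX and 88.0% over the whole list. With lists of equal length, cut among tied control scores, 9.52% of HOX knockdown KAT7 summits had a control one, against 13.1% of the whole list. At 100 bp 8.82% of HOX control KAT7 summits had H3K27ac, against 2.09% of the whole list. At a score of at least 10, windows with at least as many control H3K27ac summits as HOXA, HOXB and HOXC made up 0.909%, 0.519% and 4.51%. HOXA and HOXB thus changed order in the control. For knockdown H3K27ac the share was 0.154% for HOXA, 2.14% for HOXB and 13.0% for HOXC, so the order held. For knockdown KAT7 it was 7.37% for HOXC and 1.48% for HOXD. Stretches with no summit at that score gave no value, and neither did control KAT7 shares. With KAT7 within 1000 bp in place of 500 bp, 8 knockdown H3K27ac summits had a median score of 5.41, and in the control the median with KAT7 fell below that without at 100 and 1000 bp (7.31 and 7.49), alternatives chosen after seeing the data. No paired analysis was possible because each group holds 1 library. The unknown depth limits every count and score.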
